A study of Rattus norvegicus with 2 samples.

Results

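The genes described here are the Atg8 family of autophagy proteins (Map1lc3a, Map1lc3b, Gabarap, Gabarapl1 and Gabarapl2), the autophagy receptor Sqstm1, and Becn1, Atg5, Atg7 and Atg10 of the autophagy machinery. They were looked up by name, by RefSeq identifier or by the description column. The list was chosen with earlier results of these data known. Of these 10 genes, 9 had a value in at least 1 library, out of 9894 genes listed. For Becn1, a subunit of the lipid kinase complex that starts the autophagosome, no value was found by identifier, symbol or description, and it was not analysed here. Dissociated cells of embryonic day 16 Sprague-Dawley rat cortex were electroporated with a Scramble control plasmid or with a PIWIL1 RNAi plasmid and cultured for 48 h with serum and B27. Total RNA gave 1 digital gene expression library for each plasmid. There were thus no replicates, and each test compares these 2 libraries and not the conditions. PIWIL1 is a PIWI protein known from the germ line, and the study asked which mRNAs change when it is knocked down in newborn neurons. The labels give neither the share of cells that took up a plasmid nor whether animals or cultures were pooled. The study does not say which of its siRNAs was used.

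In autophagy, a double membrane closes around cytoplasm, organelles or protein aggregates and fuses with the lysosome, where the contents are broken down. The Atg8 proteins are small ubiquitin-like proteins of a pair of subfamilies, LC3 and GABARAP, which Atg7, Atg3 and the Atg12-Atg5 complex attach to a membrane lipid, and receptors such as p62, the product of Sqstm1, bind them and carry cargo into the autophagosome. In neurons, autophagosomes form in distal axons and move along microtubules toward the cell body, and LC3 was first known as a light chain that copurified with microtubule-associated proteins.

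A digital gene expression library counts short tags cut from the mRNA at CATG sites, here 21 bases long, and site 1 is the CATG nearest the 3′ end of the transcript. The Scramble library held 1947600 tag copies on genes and the PIWIL1 RNAi library 1865913, out of 3386865 and 3303360 clean tags. A tag seen once is not listed, since the lowest copy number is 2. The intervals given are exact 95% intervals and cover counting error only, since each group had 1 library. They treat copies as independent, which copies made by PCR are not, so they may be too narrow even for counting error. PIWIL1 itself had no value in either library, so the knockdown could not be checked in these data. All 8 neuronal markers examined had a value, with a summed level of 4122 and 3697 TPM in the Scramble and RNAi libraries, and Snap25 was the 1 among them called lower. Of the 7 listed in both libraries, 4 were lower and 3 higher. Stmn2 went from 2209.71 to 1718.86 TPM and Gap43 from 788.34 to 1071.94 TPM. Of the copies of Gap43, 74.4% lay on tags that end in a run of 8 or more A. Syt1 was listed at 0 in the Scramble library, and Rbfox3 and Nefl had 8 copies or fewer in each. The 7 radial glia or progenitor markers summed to 1077 and 1361 TPM, but 6 of them were lower in the RNAi library (median log2 ratio -0.26 over the 7) and Vim alone was higher, at 789.52 and 1127.34 TPM. The most copied tag of Vim had 2234 and 2280 copies, beside 2674 and 3724 for the whole gene. The 3 vascular or fibroblast markers with a value summed to 486 and 459 TPM, and the astrocyte, oligodendrocyte, microglia and erythroid markers to 24.2 TPM or less each in either library. None of these 6 lists held a called gene. The part of such shifts in cell makeup in the results below was not tested, and in RNA of whole cultures fewer cells of a type and less RNA per cell cannot be told apart.

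The tags that carried most copies of each gene are shown first, because each value below is a count of such sequences. They are written 5′ to 3′, and the capitals mark the last 2 bases, because the ratio of a tag between the libraries moved with those bases over all genes.
Map1lc3a site 1: catggtatgtggatctgtgGT
Map1lc3b site 1: catgtccctggtttataacTA
Gabarap site 1: catgaagaagacttctttcTA
Gabarapl1 site 1: catgacatttcaattcatcTC
Gabarapl2 site 7: catgttggactgagctaatCT
Sqstm1 site 1: catgctgcactccacttgcTC
Atg5 site 4: catgtgtgaaggaagctgaCG
Atg7 site 3: catggcctgaagaaacccaAG
Atg10 site 2: catgtcaccaagatttgatGC
The site nearest the 3′ end gave the most copied tag of Map1lc3a, Map1lc3b, Gabarap, Gabarapl1 and Sqstm1. For Gabarap, that tag held 100% of the copies with Scramble and 99.1% with RNAi. The corresponding shares were 84.6% and 83.5% for Map1lc3a and 53.3% and 47.5% for Map1lc3b, whose copies were spread over 13 sites.

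In both libraries the Atg8 genes were among the more abundant transcripts, and no member with more than 10 copies was called as changed. Map1lc3a had more copies than 98.7% of the listed genes in either library. The order of tag levels in the Scramble library was Map1lc3a, Map1lc3b, Sqstm1, Gabarapl1, Gabarapl2, Gabarap, Atg5, Atg7 and Atg10. In the RNAi library Sqstm1 stood above Map1lc3b and Atg10 above Atg7, and the other positions were the same. The intervals of Map1lc3b and Sqstm1 overlapped in both libraries, as did those of Atg7 and Atg10, so these neighbours could not be ordered. Levels are in tags per 1000000 clean tags (TPM), with no division by transcript length. The order is one of tag yield, and how far this depends on the CATG sites of a transcript was not tested.

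**Figure D1:**
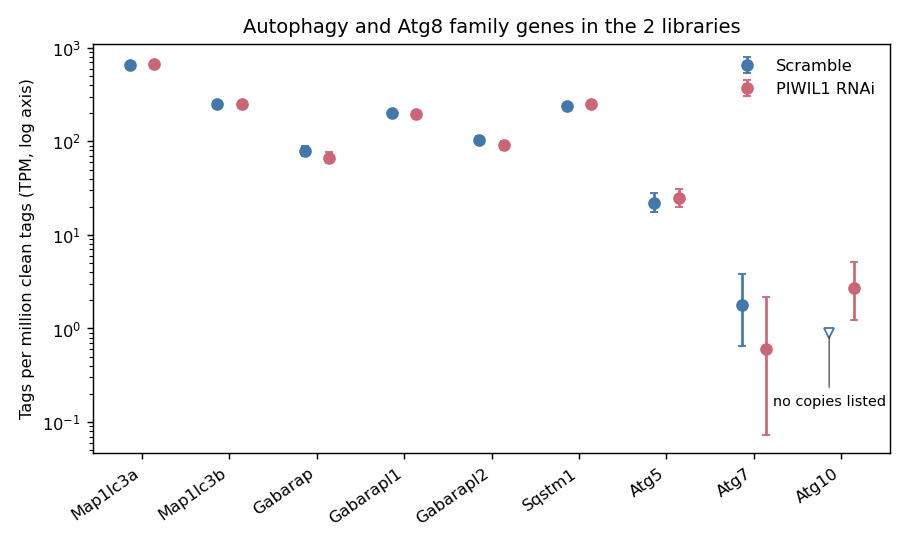
Level of each gene in tags per 1000000 clean tags (TPM, log axis) in the Scramble and PIWIL1 RNAi libraries, with 95% exact intervals for counting error and a triangle at the floor of 3 copies for the library with none listed. The 7 genes from Map1lc3a to Atg5 lie side by side in both libraries, whereas Atg7 and Atg10 rest on fewer than 10 copies.

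Map1lc3a (NM_199500) encodes LC3A, one of the LC3 proteins attached to autophagosome membranes. It had 2215 copies, or 654 TPM (627 to 682), in the Scramble library and 2205 copies, or 667.5 TPM (640 to 696), in the RNAi library. The levels lay within each other's intervals. The ratio of RNAi to Scramble was 1.02 (0.962 to 1.08), with FDR = 0.465 by Fisher's exact test (Benjamini-Hochberg adjusted).

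Map1lc3b (NM_022867) encodes LC3B, the form most used as a marker of autophagosomes. It had 844 copies, or 249.2 TPM, in the Scramble library and 821 copies, or 248.53 TPM, in the RNAi library. The levels differed by less than counting error, with a log2 ratio of -0.0039 (-0.14 to 0.14) that became 0.091 with TMM factors, and FDR = 0.916 by Fisher's exact test (Benjamini-Hochberg adjusted).

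The GABARAP subfamily, whose members also serve late steps of autophagosome closure and intracellular traffic, gave lower values in the RNAi library for each of its 3 genes, none of them called. Over all genes, 5041 of the 8899 listed in both libraries were lower. Gabarap (NM_172036), named for its binding to a GABA-A receptor subunit, had 268 copies (79.13 TPM) and 221 copies (66.9 TPM). Its log2 ratio was -0.24 (-0.51 to 0.02), and the interval reached past 0. Gabarapl1 (NM_001044294), a close relative abundant in brain, had 689 copies (203.43 TPM) and 648 copies (196.16 TPM). Its log2 ratio was -0.05 (-0.21 to 0.10) and turned to 0.042 with TMM factors, so that its sign depends on the scaling. Gabarapl2 (NM_022706), also known as GATE-16, had 351 copies (103.64 TPM) and 301 copies (91.12 TPM). Its log2 ratio was -0.19 (-0.41 to 0.04), and the FDR of the 3 genes by Fisher's exact test (Benjamini-Hochberg adjusted) lay between 0.307 and 0.903.

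Sqstm1 (NM_175843) encodes p62, which binds ubiquitinated cargo and LC3 and is itself degraded by autophagy. It had 814 copies (240.34 TPM) in the Scramble library and 830 copies (251.26 TPM) in the RNAi library. The log2 ratio was 0.06 (-0.08 to 0.21), with FDR = 0.468 by Fisher's exact test (Benjamini-Hochberg adjusted), and it became -0.039 when tags were corrected for their last bases.

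The genes of the conjugation machinery were far less abundant. Atg5 (NM_001014250), which joins Atg12 to form the complex that directs Atg8 lipidation, had 75 copies (22.14 TPM) and 83 copies (25.13 TPM). Its log2 ratio was 0.18 (-0.29 to 0.65), an interval that holds both 0 and the 0.58 needed for a call. Atg7 (NM_001012097), the activating enzyme for both Atg8 proteins and Atg12, had 6 copies (1.77 TPM) and 2 copies (0.61 TPM). The ratio was 0.345 with a counting interval from 0.0337 to 1.91, and no direction can be read from it. Atg10 (NM_001109505), the enzyme that transfers Atg12 to Atg5, had no listed copy in the Scramble library, where the floor of 3 copies is 0.886 TPM, and 9 copies, or 2.72 TPM (1.25 to 5.17), in the RNAi library.

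Atg10 was thus the 1 member called, higher in the RNAi library, at least 3.07-fold against that floor and with the exact interval of the ratio starting at 2.02, with FDR = 0.0133 by Fisher's exact test (Benjamini-Hochberg adjusted). The call did not hold once the unlisted single copies were considered. With 1 copy put back where a tag of the gene was missing from a library, the log2 ratio was 2.21 and the FDR of Fisher's exact test (Benjamini-Hochberg adjusted) was 0.163. With edgeR's exact test at a biological coefficient of variation set to 0.1, its FDR was 0.104. The 9 copies came from a tag at site 2 with 7 copies and a tag at site 9 with 2 copies. The study itself placed Atg10 among its upregulated genes from these libraries, so the present value is not independent evidence of a rise.

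Calls required both an FDR at or under 0.05 and a log2 ratio of at least 0.58 in size. Of the 9 members with a value, 1 was called (11.1%), against 8.93% of all 9894 genes, of which 5.97% were called lower and 2.96% higher. The split over all genes, 591 lower and 293 higher, depended on the scaling, being 459 and 398 with TMM factors and 475 and 382 with DESeq2 size factors. On the ratio alone, 2 members (Atg7 and Atg10) passed 0.58, against 35.5% of all genes. Of the members, 5 had a lower and 4 a higher level in the RNAi library. The median log2 ratio of the 8 members listed in both libraries was -0.028, beside -0.085 for the 8899 genes listed in both.

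**Figure D2:**
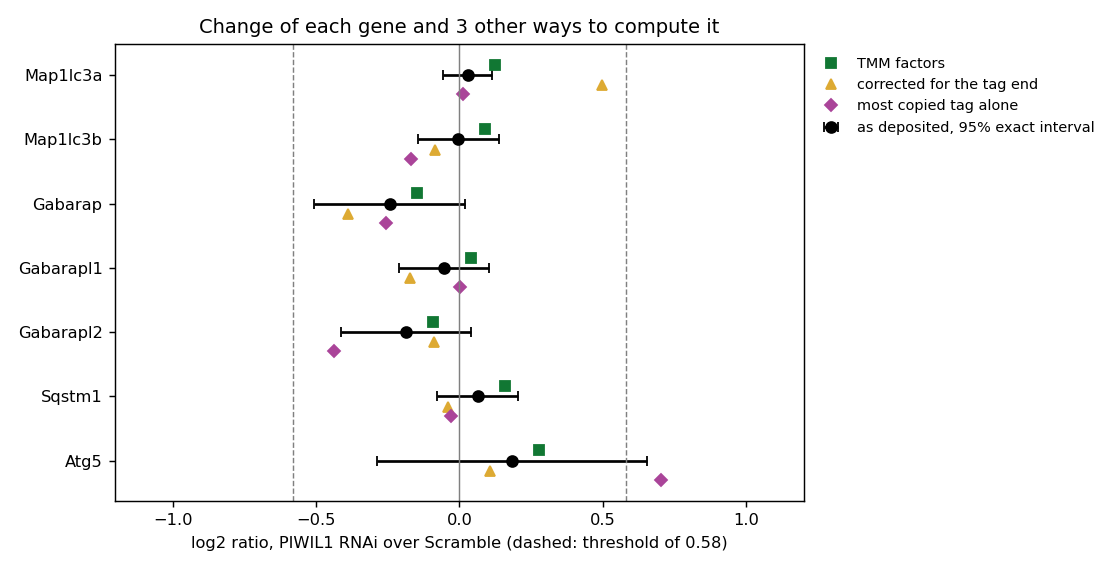
Log2 ratio of PIWIL1 RNAi over Scramble for the 7 members with more than 10 copies (circles, with 95% exact intervals) and the same ratio with TMM factors, corrected for the last bases of the tags, or from the most copied tag alone. The deposited values lie inside the dashed lines at 0.58 for all 7, and the most copied tag of Atg5 alone gives 0.70.

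Summed over its 5 genes, the Atg8 family had 4367 copies (1289.4 TPM) in the Scramble library and 4196 copies (1270.21 TPM) in the RNAi library. The log2 ratio of the sum was -0.02 (-0.08 to 0.04), a difference smaller than its counting error. The LC3 subfamily held 70.0% (68.7 to 71.4, Clopper-Pearson) of these copies in the Scramble library and 72.1% (70.7 to 73.5) in the RNAi library. The shares of the subfamilies thus differed by little, and their intervals overlapped. The LC3 genes together went from 903.2 to 916.03 TPM, with a log2 ratio of 0.02 (-0.05 to 0.09). The GABARAP genes together went from 386.2 to 354.18 TPM, with a log2 ratio of -0.12 (-0.24 to -0.0099), an interval that ends just below 0 and that carries no variation between cultures. The median over all genes listed in both libraries was -0.085. With TMM factors the log2 ratios were -0.15 for Gabarap, 0.042 for Gabarapl1 and -0.091 for Gabarapl2. The sum was not computed with those factors. Within the family, Map1lc3a alone made up 50.7% and 52.5% of the copies. Map1lc3b followed with 19.3% and 19.6%, Gabarapl1 with 15.8% and 15.4%, Gabarapl2 with 8.04% and 7.17%, and Gabarap with 6.14% and 5.27%.

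The members' 71 tags did not all move as their genes did. Of the 31 tags with 20 or more copies over both libraries, 16 were lower and 15 higher with RNAi. Of the 71 tags, 27 were listed in 1 library only. Listing in 1 library was common over all genes, since 44260 of the 53118 tags were listed with Scramble and 42384 with RNAi. By Fisher's exact test per tag, 3 of the 31 were called (9.68%), against 8.33% of the 16021 tags of all genes with as many copies and 2.74% of all 53118 tags. The 3 called tags, and 3 others whose values follow, are given with their last 2 bases in capitals.
Map1lc3b site 4: catgcttgtgacagacataCA
Map1lc3b site 10: catgcaagtgcatttggctTG
Gabarapl1 site 4: catgtcccgctcttcttccCA
Map1lc3b site 5: catgtcagctctgaaggcaAC
Sqstm1 site 2: catgctgacccctgagcacAG
Atg5 site 1: catgggagatagggcaccgGC
None of the members' tags ended in a run of 8 or more A, a class of tags that stood apart between the libraries.

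Within Map1lc3b, a called tag rose and another fell, while the gene as a whole did not differ. The site 4 tag had 34 copies with Scramble and 70 with RNAi. It rose by a log2 ratio of 1.08 (0.47 to 1.71), with FDR = 0.00708 by Fisher's exact test (Benjamini-Hochberg adjusted over all tags). The site 10 tag had 66 and 30 copies. Its log2 ratio was -1.10 (-1.78 to -0.46), with FDR = 0.0168 by the same adjusted Fisher's exact test. All tags ending in TG, as it does, had a median log2 ratio of -0.67 (quartiles -1.30 and -0.018), whereas those ending in CA, as the site 4 tag does, had a median of 0.16. Corrected for these ends, neither tag was called. The neighbouring site 5 tag, with 41 and 71 copies, had a log2 ratio of 0.83 (0.25 to 1.42) and FDR = 0.0603 by Fisher's exact test (Benjamini-Hochberg adjusted).

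Taking all upstream sites of Map1lc3b together, the 455 and 390 copies at site 1 stood against 389 and 431 copies at sites 2 and up. The log2 ratios were -0.19 (-0.39 to 0.01) at site 1 and 0.18 (-0.02 to 0.39) upstream. Both intervals held 0, and the difference between them was not tested. Sqstm1 had a like arrangement, with 602 and 575 copies at site 1 and 212 and 255 copies upstream. Its upstream log2 ratio was 0.30 (0.03 to 0.57), to which the site 2 tag, with 141 and 184 copies, gave most. Alone, that tag had a log2 ratio of 0.42, with FDR = 0.127 by Fisher's exact test (Benjamini-Hochberg adjusted over all tags). Corrected for its end, the tag had a log2 ratio of 0.22, and it was called in neither setting.

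In Gabarapl1, 1 upstream tag was called lower. The site 4 tag had 67 copies with Scramble and 29 with RNAi. This tag fell by 1.17 on the log2 scale (-1.85 to -0.52), with FDR = 0.00852 by Fisher's exact test (Benjamini-Hochberg adjusted over all tags). Its share of the copies of the gene was 9.72% in the Scramble library and 4.48% in the RNAi library. It ends in CA, a class whose median was 0.16, and it was still called after correction for the tag end. The upstream sites other than site 4 had 47 and 49 copies together, and site 1 had 575 and 570, a log2 ratio of 0.02.

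The most copied tag of Map1lc3a, with 1874 and 1842 copies, had a log2 ratio of 0.01 (-0.08 to 0.10). It ends in GT, and tags with that end had a median of -0.67 (quartiles -1.07 and -0.26) over all genes. The tag thus stood above the upper quartile of its class, and with correction for tag ends it had a log2 ratio of 0.57, with FDR = 1.76e-34 by Fisher's exact test (Benjamini-Hochberg adjusted). The gene as a whole then had a log2 ratio of 0.50 with FDR = 1.55e-32 by the same test, against 0.03 as deposited, so that both passed the FDR threshold but stayed under the ratio needed for a call. The correction takes the median of each end as exact. Both FDR values therefore leave out the spread of tags within a class and cannot show that Map1lc3a rose. In Gabarapl2, 64.1% and 53.8% of the copies lay on the site 7 tag, which had 225 and 162 copies. Its log2 ratio was -0.44 (-0.74 to -0.14), with FDR = 0.119 by Fisher's exact test (Benjamini-Hochberg adjusted). Of the other tags of Gabarapl2 with at least 20 copies, site 1 had 39 and 34 copies, site 8 had 13 and 24, and site 9 had 51 and 63, so that 1 was lower and 2 were higher. In Atg5, the site 1 tag had 36 and 32 copies and the site 4 tag 29 and 46, and neither was called.

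**Figure D3:**
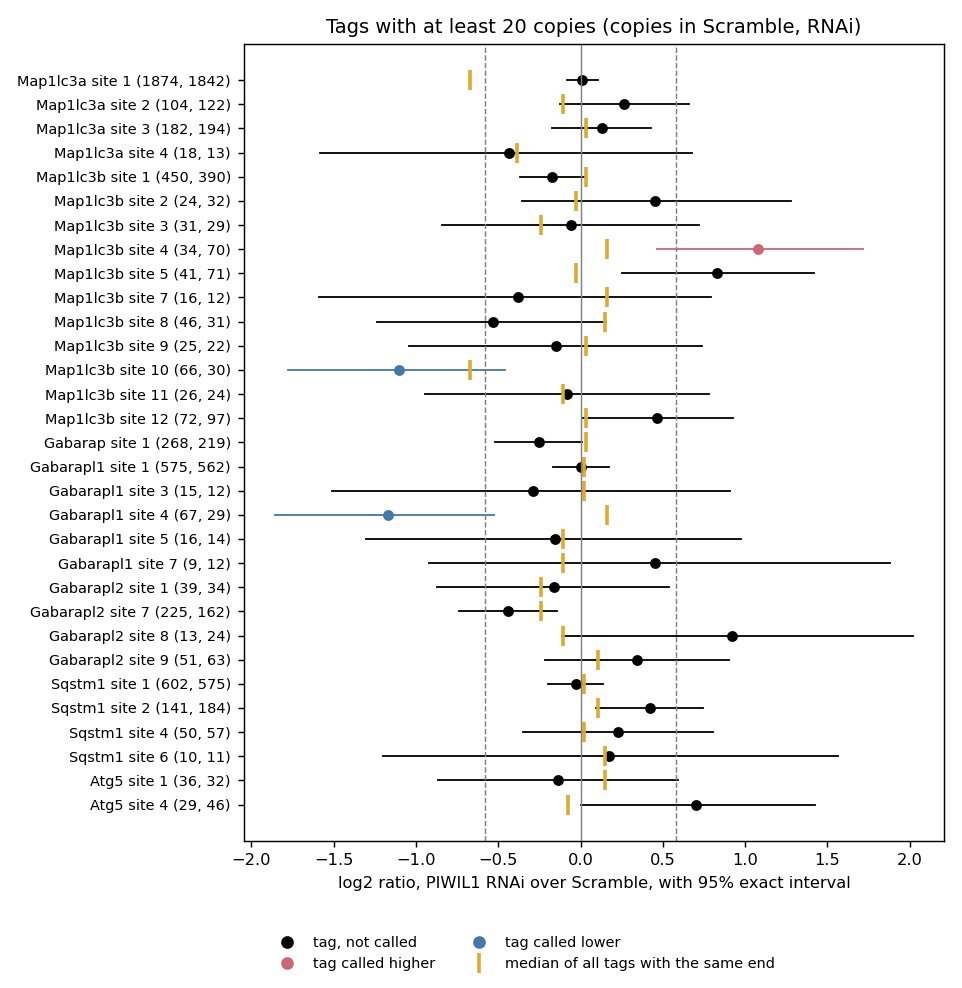
Log2 ratio of PIWIL1 RNAi over Scramble, with 95% exact intervals, for the 31 member tags with at least 20 copies, named by gene and CATG site with their copies, and the median ratio of all tags that share the same end (bars). The called tags are Map1lc3b site 4 on the higher side and Map1lc3b site 10 and Gabarapl1 site 4 on the lower side, and the Map1lc3a site 1 tag lies far to the right of the median of its end.

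**Figure D4:**
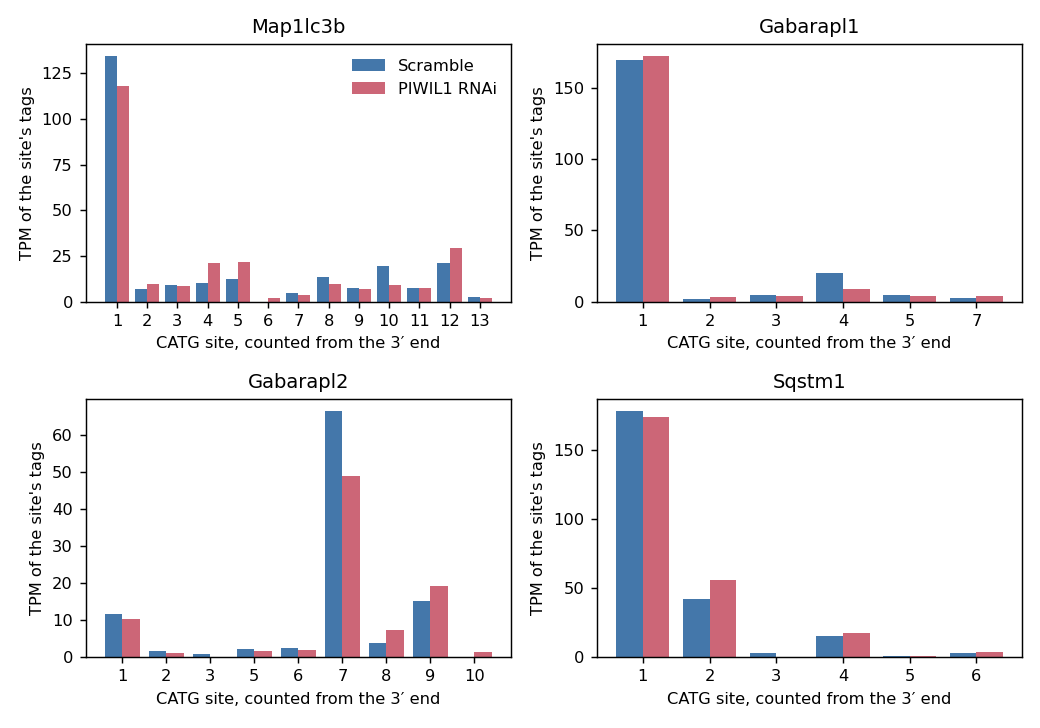
Level in TPM (linear axes from 0) of the tags at each CATG site, numbered from the 3′ end, in the Scramble and PIWIL1 RNAi libraries for Map1lc3b, Gabarapl1, Gabarapl2 and Sqstm1. Site 1 is the highest bar in 3 of the genes, whereas site 7 is the highest in Gabarapl2.

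Map1lc3a and Map1lc3b are close relatives, and 2 pairs of their tags differed by 1 base, so that a sequencing error could move a copy from one gene to the other. Positions are counted from 1 at the 5′ end of the tag, the capital marks the base that differs, and the substitutions from Map1lc3a to Map1lc3b were A19G in the first pair and A13G in the second.
Map1lc3a site 2: catggtctatgcctcccaAga
Map1lc3b site 11: catggtctatgcctcccaGga
Map1lc3a site 3: catggtgagtgtAtccacacc
Map1lc3b site 12: catggtgagtgtGtccacacc
The first pair had 104 and 122 copies for Map1lc3a and 26 and 24 copies for Map1lc3b in the Scramble and RNAi libraries. The second had 182 and 194 copies for Map1lc3a and 72 and 97 copies for Map1lc3b. Without these 4 tags, Map1lc3a had 1929 and 1889 copies with a log2 ratio of 0.0058 (-0.09 to 0.10), and Map1lc3b had 746 and 700 copies with a log2 ratio of -0.06 (-0.21 to 0.09). Neither gene was called with or without them. These 4 tags were 5.63% of the members' tags, whereas 580 of all 53118 tags (1.09%) lay 1 base from a tag of another gene.

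Rare tags 1 base away from a tag at the same site with at least 20 times as many copies made up 21 of the 71 member tags (29.6%). Over all genes they made up 9.43% of the tags. The 21 member tags held 33 copies with Scramble and 44 with RNAi, or 0.627% and 0.859% of the members' copies, beside 0.422% and 0.599% over all genes. Map1lc3a had 15 of them, 14 at site 1, where its most copied tag lies. The deposited copies of this gene thus include a small number on near copies of its leading tag.

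A further feature of the tags was that some ran into the next CATG of their own transcript, and the capitals mark the bases shared with the next site's tag. They are shown because the first tag of 2 of these 3 pairs was listed in 1 library only, while its neighbour was listed in both.
Map1lc3a site 5: catgttaaCATGAGCGAGTTG
Map1lc3a site 4: CATGAGCGAGTTGgtcaagat
Map1lc3b site 6: catgccagtacataCATGTCA
Map1lc3b site 5: CATGTCAgctctgaaggcaac
Gabarapl2 site 2: catggtggctcttCATGATGT
Gabarapl2 site 1: CATGATGTcatctgatgccct
The Map1lc3a site 5 tag had 9 copies in the Scramble library and none listed in the RNAi library, while its site 4 tag had 18 and 13. The Map1lc3b site 6 tag had none listed in the Scramble library and 7 copies in the RNAi library, while its site 5 tag had 41 and 71. The Gabarapl2 tags had 5 and 3 copies at site 2 and 39 and 34 at site 1. Neither site 5 of Map1lc3a nor site 6 of Map1lc3b passed the test over all tags, with FDR = 0.0869 and 0.127 by Fisher's exact test (Benjamini-Hochberg adjusted).

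The rest of the pathway was read from a list of 55 other autophagy genes, of which 47 had a value. The genes without one were Atg13, Pik3r4, Rubcn, Atg2b, Atg4b, Optn, Vamp8 and Tfe3. By the same rule, 3 genes were called lower and 3 higher, together 12.8% of the 47, beside 8.93% of all genes (5.97% lower and 2.96% higher). Of the 46 genes listed in both libraries, 23 were lower and 23 higher, with a median log2 ratio of -0.03 beside -0.085 for all genes. Among the called genes were a receptor of mitophagy and a lysosomal membrane protein on the lower side and an inhibitor of mTORC1 on the higher side. A further 6 genes passed the FDR of 0.05 but not the ratio of 0.58. The share of all genes that did so was not counted, so this number has no background to be read against.

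In the induction complex, which phosphorylates the first autophagy proteins, 4 of 5 genes had a value and none was called. The kinase Ulk2 had 271 and 195 copies in the Scramble and RNAi libraries (log2 ratio -0.44), and the subunit Atg101 had 94 and 127 (0.47). In the PI3-kinase complex, to which Becn1 belongs, 5 of 7 genes had a value and none was called. Its regulators Nrbf2 and Ambra1 had 60 and 62 copies and 39 and 52 copies. These values rest on few copies.

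Among the genes of Atg9 vesicles and lipid transfer, 6 of 7 had a value and 1 was called. Wipi1, which binds the lipid made by that kinase, had 104 and 154 copies and rose by a log2 ratio of 0.60 (0.23 to 0.98), with FDR = 0.00591 by Fisher's exact test (Benjamini-Hochberg adjusted). Of its copies 36.0% lay on tags that end in a run of A, and without those tags the log2 ratio was 0.12 and the call was lost. The membrane protein Atg9a had 165 and 170 copies, and the lipid transfer protein Atg2a had 118 and 158. The remaining conjugation and processing genes, which act with Atg5, Atg7 and Atg10, had a median log2 ratio of -0.22, and none of the 6 with a value was called. Atg12 had 185 and 154 copies (log2 ratio -0.23) and Atg3, which hands Atg8 proteins to the lipid, 118 and 100 (-0.20).

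Of the autophagy receptors, which stand beside Sqstm1, 9 of 10 had a value and 2 were called, both lower. Bnip3, a mitochondrial receptor also known as a target of hypoxia signalling, had 193 and 85 copies. It fell by 1.15 on the log2 scale (-1.53 to -0.77), with FDR = 1.91e-08 by Fisher's exact test (Benjamini-Hochberg adjusted). Its most copied tag ends in TG, a class with a median of -0.67, and corrected for tag ends the log2 ratio was -0.69 and still called. Tax1bp1, a receptor for ubiquitinated cargo, had 252 and 163 copies and a log2 ratio of -0.59 (-0.89 to -0.30), with FDR = 0.00105 by Fisher's exact test (Benjamini-Hochberg adjusted). That call was lost with TMM factors (-0.50), with DESeq2 size factors (-0.51) and with 1 copy put back (-0.57). The related Bnip3l had 994 and 1073 copies (log2 ratio 0.15), and the adaptor Wdfy3 had 353 and 428 (0.31). Of the 9 receptors, 5 were lower and 4 higher in the RNAi library, with a median log2 ratio of -0.41.

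Of the genes for fusion and the lysosome, 10 of 12 had a value, with 1 called lower and 1 higher. Lamp1, a major protein of the lysosomal membrane, had 371 and 205 copies and fell by 0.82 on the log2 scale (-1.07 to -0.57), with FDR = 4.63e-09 by Fisher's exact test (Benjamini-Hochberg adjusted). Most of these copies, 311 and 161, were on a tag ending in GT. Corrected for tag ends the log2 ratio was -0.31, and Lamp1 met neither the ratio nor the FDR needed for a call. Snap29, a SNARE protein that fuses autophagosomes with lysosomes, had 169 and 262 copies and rose by 0.67 (0.38 to 0.96), with FDR = 1.59e-05 by Fisher's exact test (Benjamini-Hochberg adjusted). After that correction Snap29 was not called either (0.43), on the ratio but not on the FDR. The small GTPase Rab7a had 1000 and 978 copies, and the protease Ctsb 541 and 642.

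All 7 genes of mTORC1 control, the pathway that holds autophagy down when nutrients are plentiful, had a value and 1 was called. Ddit4, a stress-induced inhibitor of mTORC1, had 642 and 1117 copies and rose by a log2 ratio of 0.83 (0.69 to 0.98), with FDR = 1.81e-32 by Fisher's exact test (Benjamini-Hochberg adjusted). Its most copied tag ends in a run of 6 A, a class with a median of 0.36. Corrected for tag ends the log2 ratio of Ddit4 was 0.33, and the call was lost on the ratio but not on the FDR. The study had also listed Ddit4 as upregulated in these libraries, so that its value is not independent evidence. Tsc2, which restrains mTORC1 as well, had 153 and 184 copies (log2 ratio 0.30) and was not called.

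**Figure D5:**
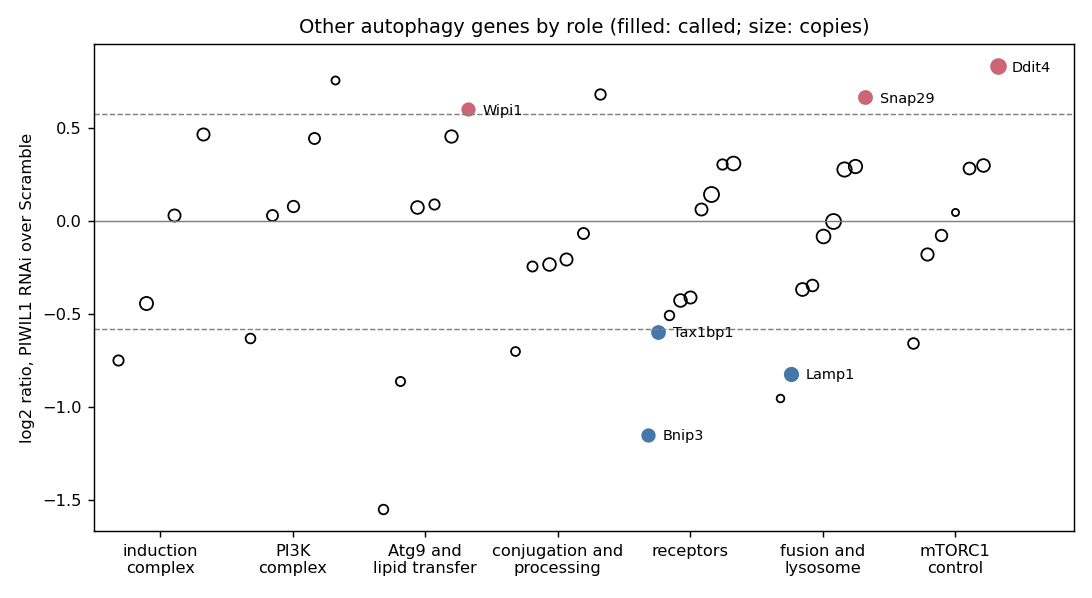
Log2 ratio of PIWIL1 RNAi over Scramble for the 46 other autophagy genes listed in both libraries, arranged by role, with a larger circle for more copies and dashed lines at 0.58. Called genes are filled and named, with Wipi1, Snap29 and Ddit4 higher and Tax1bp1, Bnip3 and Lamp1 lower, and each role holds genes on both sides of 0.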

How the data were processed

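For each group, 1 library was made from total RNA of cultured cells. The authors deposited, for each gene, a tag count without normalization and the same value as TPM, here tags per 1000000 clean tags of the library (a CPM, with no division by length), and the copies of every 21-base tag with the number of its CATG site from the 3′ end. Per the labels the build was rn4, and the program and reference transcripts used to match tags to genes are not given in the sources used here. The deposited files also hold GO terms, which were not used. Symbols came by identifier from RefSeq for 9337 of 9894 genes (94.4%).

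With 1 library per group no dispersion can be estimated, so copies of a gene were tested against all other copies on genes by Fisher's exact test, two-sided, with Benjamini-Hochberg adjustment (FDR) over 9894 genes, or over 53118 tags. Following the study's thresholds, calls needed FDR at or under 0.05 and a log2 TPM ratio of at least 0.58 in size, and a gene listed in 1 library passed the latter. Intervals are exact (Clopper-Pearson, 95%). The detection floor was 3 copies, 0.886 TPM in the Scramble and 0.908 TPM in the RNAi library. No filter was applied to low counts.

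Members and lists were chosen with earlier results of these data known. Named were all members, their tags with at least 20 copies and the most copied tag of each, every called gene of the autophagy list, and the 2 genes with most copies in each of its roles. Some tags outside that rule, and the rare and overlapping tags, were chosen after their values were seen. Alternatives were TMM factors, DESeq2 size factors, and edgeR's exact test at biological coefficients of variation set to 0.1, 0.2 or 0.4. Others were a filter of 10 copies, 1 copy put back for unlisted tags, leaving out tags that end in 8 or more A, and a log2 threshold of 1. The most copied tag alone and a correction for tag ends were used as well. That correction subtracted from the log2 ratio of each tag the median of its end less the median of all tags. Both medians came from tags of other genes with at least 20 copies. Leaving out tags that lie 1 base from another gene's tag was added after seeing the data. The cell type markers were Tubb3, Dcx, Stmn2, Gap43, Snap25, Rbfox3, Nefl and Syt1 for neurons, Sox2, Nes, Vim, Fabp7, Slc1a3, Pax6 and Hes5 for radial glia or progenitors, Gfap, Aqp4, S100b and Aldh1l1 for astrocytes, Mbp, Olig2, Pdgfra and Sox10 for oligodendrocytes (1 further marker is not reported here), Aif1, Cx3cr1, Csf1r, Ptprc and Itgam for microglia, Pecam1, Cldn5, Col1a1, Col3a1 and Dcn for vascular cells or fibroblasts, and Hbb, Hba1 and Alas2 for erythroid cells. The test was checked on simulated data. Python 3.11.15, SciPy 1.17.1, statsmodels 0.14.6, R 4.3.3, edgeR 4.0.16 and DESeq2 1.42.0 were used.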

Additional observations from a re-analysis of the deposited data

How the results depend on the processing

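With 1 library per group, leaving out a replicate was not possible, and variation between cultures enters no value. No paired analysis was possible because each group had 1 library. With the biological coefficient of variation set to 0.1, 0.2 and 0.4 in edgeR's exact test, the genes called went from 884 to 284, 17 and 0, those lower from 591 to 170, 2 and 0, and those higher from 293 to 114, 15 and 0. The called genes of the autophagy list went from 6 to 3, 0 and 0 (the higher ones from 3 to 1, 0 and 0, and the lower ones to 0 at 0.2 and 0.4), and the members from 1 to 0 at each. Corrected for tag ends, 557 genes were called (377 lower, 180 higher), with 2 of the autophagy list and 0 of its higher genes. At a log2 threshold of 1, 408 genes were called (262 lower, 146 higher), with 1 of the list, which was lower, and 0 higher. The members called also went to 0 with the filter of 10 copies, under which Atg10 was not tested, and with 1 copy put back. The most copied tag of Atg10 alone had FDR = 0.127 by Fisher's exact test (Benjamini-Hochberg adjusted). The sign of small differences depended on the setting. Map1lc3b became 0.091 with TMM and 0.081 with DESeq2 size factors, Gabarapl1 0.042, 0.033 and, from its most copied tag, 0.0030, and Sqstm1 -0.039 corrected for tag ends and -0.030 from its most copied tag. Of single tags corrected for their ends, Map1lc3b site 3 became 0.10, Gabarapl1 site 1 -0.11 and Sqstm1 site 6 -0.043, and the called tags Map1lc3b site 4 (0.83) and site 10 (-0.44) lost their calls. The correction moved Map1lc3a from 0.03 to 0.50, below the threshold of 0.58. Beyond what the construction of each setting shows, the cause was not tested. The other 56 values of members and 26 of tags kept their direction and were called or not as before. Among these, the ratio of the most copied tag crossed 0.58 for Atg5 (0.70) and Atg7 (-0.38 against the floor), as did that of Map1lc3b site 7 (-0.62) and site 8 (-0.77) corrected for tag ends. Depth limits Atg7 and Atg10, which had fewer than 10 copies in each library.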
